A study of Mus musculus with 4 samples.

Results

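Pi16-high fibroblasts of the mouse heart are described here as they appeared in 4 single-cell RNA libraries of sorted cells. A kept cell had at least 500 genes, at least 1000 UMIs (unique molecular identifiers, 1 per captured RNA molecule) and at most 10% mitochondrial UMIs. A member had Pi16 at 20 or more UMIs per 10000, at least 2 of the 5 transcripts Sema3c, Dpp4, Efhd1, Cd248 and Gfpt2, at most 1 UMI of Cthrc1 and none of Wif1. By that rule 2999 of 30454 kept cells were members. They were set against 25556 comparison cells, which were the other kept cells with fewer than 2 of the mural cell genes Rgs5, Kcnj8, Vtn and Myh11.

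The study sorted cells from C57BL/6 hearts by 3 reporters and loaded them on the Chromium 3′ platform. In Hic1 CreERT2 tdTomato animals a drug-inducible Cre made from the Hic1 gene switches on a lasting red label, and their tdTomato+ cells came from hearts taken 7 days after ligation of the left anterior descending coronary artery (LAD) and from undamaged hearts, as 1 library of 3 pooled hearts per condition. Citrine+ cells of Hic1 Citrine mice came from 3 undamaged hearts, tagged heart by heart with hashtag antibodies and run as 1 library. GFP+ cells of PDGFRa H2BEGFP mice (strain B6.129S4-Pdgfratm11(EGFP)Sor/J), which report current Pdgfra expression, came from 4 tagged hearts in 1 library, 2 of them ligated and 2 undamaged, and the labels used here do not say which hashtag belongs to which condition. All reporters select cells that express or once expressed Hic1 or Pdgfra, so cells outside both were not sampled.

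Fibroblasts marked by Pi16, a secreted or membrane-anchored protein of the CAP superfamily, and by Dpp4, a surface peptidase, lie in the outer coat of vessels and in the connective tissue between organs in many mouse tissues. They carry Sca1, the protein of Ly6a, and Cd34, and have been described as a reserve from which more specialised fibroblasts can arise. In the heart they are distinguished from the fibroblasts between the muscle fibres, and from the activated, Postn- and Cthrc1-expressing fibroblasts that form scar after infarction.

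The libraries held 9885698 to 122716283 UMIs over 2853 to 13830 barcodes. Members had medians of 5146, 4520.5, 9601.5 and 7966 UMIs in the ligated tdTomato, undamaged tdTomato, citrine and PDGFRa libraries, against 3934, 3555, 7770 and 7710 in their comparison cells, so members were deeper by median in each library. By mean the order was reversed in the PDGFRa library, with 5811277 UMIs over 698 members and 114410446 UMIs over 11819 comparison cells. Median mitochondrial shares lay between 2.73% and 3.03% in members and between 2.82% and 3.16% in comparison cells. Barcodes shared between libraries numbered 0 to 36 per pair. Only part of each tagged library could be given to 1 heart: 56.5% of citrine members and 57.9% of PDGFRa members had no single hashtag, against 49.1% and 41.1% of the comparison cells. A cell went to a heart when 1 hashtag held at least 80% of 10 or more hashtag UMIs. The hearts are numbered by hashtag.

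The name Sca1-high was checked with Ly6a, which the rule did not use. Ly6a was detected in 99.4% (96.6 to 100) of members in the ligated tdTomato library, 94.3% (90.6 to 96.9) in the undamaged one, 99% (98.5 to 99.4) in the citrine library and 97.6% (96.1 to 98.6) in the PDGFRa library (exact 95% binomial intervals). Comparison cells had a Ly6a UMI in 60.3%, 51.2%, 81.7% and 58.6%. Cells with 2 or more mural genes had one in 12.1%, 3.71%, 35% and 42% at median depths of 2615.5, 1886.5, 4077 and 7193.5 UMIs. In the citrine and PDGFRa libraries these cells were also rich in fibroblast transcripts, as given below, so they are not a Ly6a-free reference there. By level, Ly6a had 2412, 1980.4 and 2365 CPM (UMIs of a gene scaled to the summed UMIs of the cells) in members of citrine hearts 1 to 3 and 977, 767 and 917 CPM in comparison cells of those hearts. In PDGFRa hearts 1 to 4 it had 2132, 1538, 1849 and 1706 CPM in members and 297, 303, 521 and 528 CPM in comparison cells. No heart's members overlapped any heart's comparison cells, and the log2 fold change was 1.32 in citrine hearts (SE 0.03, adjusted p = 6.5e-13) and 2.08 in PDGFRa hearts (SE 0.16, adjusted p = 3.3e-06) by edgeR's quasi-likelihood test with the heart as a block and Benjamini-Hochberg adjustment over all genes tested. Ly6a was present in most comparison cells as well, so members had the higher summed level in each heart but were not its sole carriers.

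Members were a minority in every library. They made up 3.78% of kept cells in the ligated tdTomato library (161 of 4263, exact 95% interval 3.22 to 4.39) and 8.83% in the undamaged tdTomato library (246 of 2786, 7.8 to 9.95). In the citrine library they were 17.5% (1894 of 10838, 16.8 to 18.2), and in the PDGFRa library 5.55% (698 of 12567). Among members and comparison cells alone, which leaves mural cells out of the total, the share was 5.29% (4.53 to 6.15) after ligation and 10.1% (8.93 to 11.4) in the undamaged tdTomato library. The intervals do not overlap, but each condition is 1 library, so they cover counting error only and there is no replicate check. A fall in the share cannot be told apart from a rise in the number of other sorted cells. With cells thinned to 2000 UMIs, which left out 497 ligated and 419 undamaged cells that were shallower, the shares were 2.92% of 3766 ligated and 6.89% of 2367 undamaged tdTomato cells. Among cells of 4000 to 12000 UMIs, a range chosen for the shares after seeing the data, they were 6.94% of 1730 ligated and 17.9% of 944 undamaged tdTomato cells, 16.7% of citrine and 7.14% of PDGFRa cells. In that range the undamaged tdTomato share (15.5 to 20.5) overlapped the citrine one (15.8 to 17.5). After thinning to 2000 UMIs the undamaged tdTomato share (5.9 to 7.98) stayed below the citrine one (12.4%, 11.8 to 13). The gap between these libraries thus closed in the depth range and not after thinning.

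Hearts of 1 library differed from each other. Members were 14.2%, 11.9% and 20.3% of the kept cells of citrine hearts 1 to 3, all undamaged. In PDGFRa hearts 1 to 4 they were 2.48%, 3.61%, 7.56% and 6.54%. The undamaged citrine hearts 2 and 3 thus differed beyond their counting intervals (10.7 to 13.2 and 18.5 to 22.3). Where 1 hashtag had to hold 95%, the shares were 10.2%, 10.1% and 15.9% in citrine hearts 1 to 3, and 0.835%, 3.02% and 5.11% in PDGFRa hearts 1, 2 and 4 (4 of 479, 67 of 2222 and 7 of 137 cells), with too few cells of heart 3 for a value. The condition of each PDGFRa heart is not known here, so no condition was read from these values. Cells with no single hashtag had member shares of 19.9% in the citrine and 7.65% in the PDGFRa library.

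**Figure D1:**
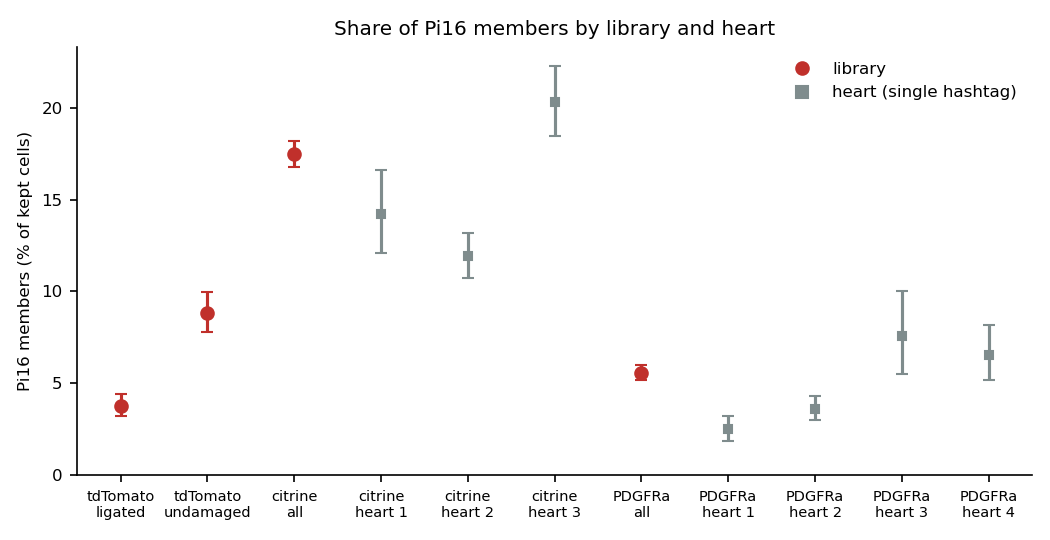
Members as a percentage of kept cells (vertical axis) for each library (circles) and each hashtag heart (squares), with exact 95% binomial intervals. The ligated tdTomato library lies at 3.78% and the undamaged one at 8.83%, while the citrine hearts span 11.9% to 20.3%.

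The genes of the rule are given as a description, with no test. Pi16 itself had 5381, 4389.8 and 5443 CPM in members of citrine hearts 1 to 3 and 625, 684 and 812 CPM in their comparison cells. In PDGFRa hearts 1 to 4 it had 4981, 3828, 4120.4 and 4497 CPM in members and 271, 333, 519 and 582 CPM in comparison cells. Pi16 was thus not confined to members: 56.6% of undamaged tdTomato comparison cells held at least 1 UMI. Of the 5 further markers, members most often held Gfpt2, which starts the hexosamine pathway, and least often Dpp4: in the undamaged tdTomato library 86.6% of members had a Gfpt2 UMI and 24% a Dpp4 UMI. All 5 were found together in 9.94% of ligated and 9.35% of undamaged tdTomato members, and in 20.7% of citrine and 23.8% of PDGFRa members, whose cells were deeper.

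Cells just above and just below the Pi16 threshold had Ly6a levels close to each other. Citrine members with 20 to 25 Pi16 UMIs per 10000 had 1598 CPM of Ly6a (388 cells), and cells that met the other conditions with 15 to under 20 had 1471 CPM (493 cells). In the PDGFRa library the values were 1274 CPM inside (165 cells) and 1118 CPM outside (287 cells). Ligated tdTomato cells had 2079 CPM inside and 1805 CPM outside, and undamaged ones 1283 CPM inside and 1321 CPM outside. The limit on Cthrc1 removed 8 further cells from the ligated tdTomato library (4.73% of those that met the Pi16 and marker conditions), none from the undamaged one, 14 from the citrine library and 45 from the PDGFRa library.

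Outside the rule, members differed from comparison cells of the same heart at many genes. The test summed UMIs per heart over members (135, 329 and 360 cells in citrine hearts, and 53, 125, 43 and 73 in PDGFRa hearts) and over comparison cells, and left out the 12 genes of the rule. In citrine hearts 1204 of 11382 genes tested were higher in members (10.6%) and 1302 lower (11.4%) at an adjusted p of 0.05. In PDGFRa hearts 597 of 10475 were higher (5.7%) and 795 lower (7.59%). In the same direction in both libraries, 507 of the 10367 genes tested in both were higher (4.89%) and 500 lower (4.82%). The 507 were 42.1% of the higher genes of the citrine hearts and 84.9% of those of the PDGFRa hearts, and the 500 were 38.4% and 62.9% of the lower genes. The 5 genes called in opposite directions were Kcnk2, Omd, Vit, C1qtnf3 and Kcnj15. Members were picked by genes that vary together with others in the same cells, so the number of differing genes is partly set by the rule. Without PDGFRa heart 1 the PDGFRa counts were 332 higher and 325 lower, without heart 2 they were 375 and 418, and without heart 1 the counts shared with the citrine hearts were 318 and 272.

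The tdTomato libraries, whose cells entered neither test, gave the direction of these genes in separate hearts. Of the 507 higher genes, 487 had at least 20 UMIs in the ligated tdTomato library and 473 of them (97.1%) were higher in members. In the undamaged one, 471 of 488 (96.5%) were. Of the 500 lower genes, 482 of 499 (96.6%) in the ligated and 473 of 495 (95.6%) in the undamaged library were lower. Over all genes tested in both, 48.5% were higher in members of the ligated and 47.3% in members of the undamaged tdTomato library. The same rule chose members in all 4 libraries.

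**Figure D2:**
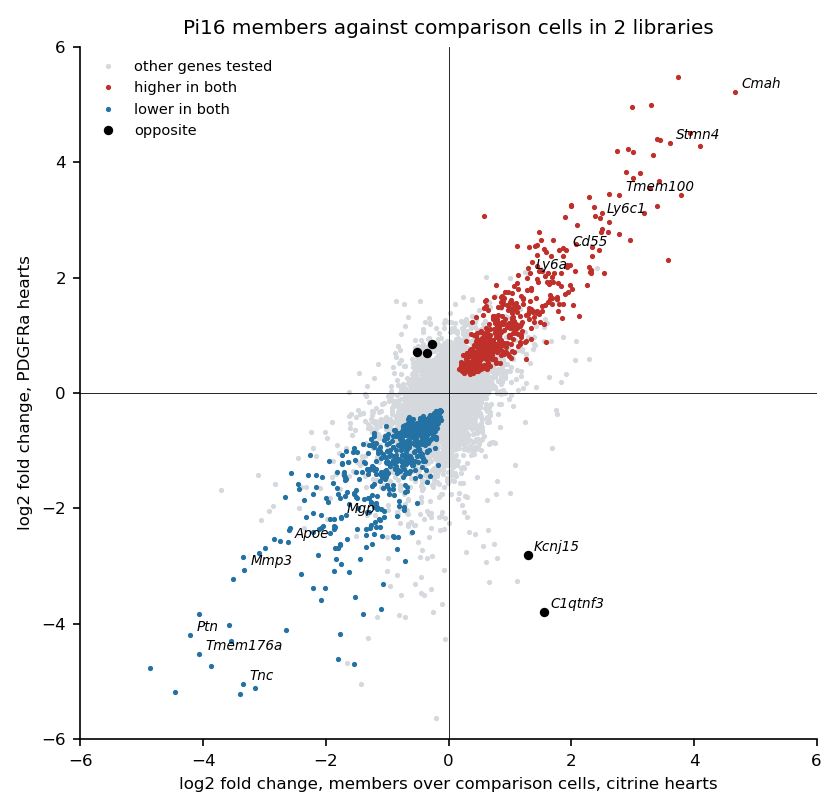
Log2 fold change of members over comparison cells in citrine hearts (horizontal axis) against PDGFRa hearts (vertical axis), 1 point per gene tested in both. The 507 genes higher in both are red, the 500 lower in both blue and the 5 in opposite directions black, and a few genes beyond 6 on either axis are not drawn.

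Cmah, which hydroxylates the sialic acid of cell-surface sugars, had the largest fold among the named higher genes. It had 75.4, 55.6 and 79.1 CPM in members of citrine hearts 1 to 3, against 1.85, 1.18 and 5.12 CPM in comparison cells. PDGFRa hearts 1 to 4 gave 72.5, 60.3, 67.5 and 76.3 CPM in members and 1.92, 2.26, 1.16 and 0.281 CPM in comparison cells. Comparison cells held almost none of it in any heart, and the log2 fold change was 4.67 in citrine hearts (SE 0.21, adjusted p = 3.5e-10) and 5.22 in PDGFRa hearts (SE 0.32, adjusted p = 1.2e-06). It was higher in tdTomato members too, with 21.3 CPM in members and 0.693 CPM in comparison cells of the ligated tdTomato library, and 20.3 CPM and 0.631 CPM in those of the undamaged one.

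Genes best known from neurons stood among the most raised. Stmn4, a stathmin that destabilises microtubules, had 102, 83.7 and 85 CPM in citrine members and 5.03, 7.82 and 7.18 CPM in comparison cells. In PDGFRa hearts it had 165, 87, 42.2 and 81.4 CPM in members and 3.24, 7.34, 2.62 and 3.8 CPM in comparison cells, with the 4 hearts' members further apart than those of the citrine hearts. Its log2 fold change was 3.61 in citrine hearts (SE 0.13, adjusted p = 2.0e-11) and 4.33 in PDGFRa hearts (SE 0.31, adjusted p = 2.6e-06). Car8, a carbonic anhydrase relative without the enzyme's activity, rose by 3.01 and 4.19 on the log2 scale in citrine and PDGFRa hearts, Fez1, a kinesin adaptor of axonal transport, by 2.78 and 2.75, and Basp1, a membrane protein of growth cones, by 2.54 and 2.08. These genes were named by the size of their change, and no test of a neuronal group was run.

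Several of the others act at the cell surface. Tmem100, a membrane protein induced by BMP signalling in endothelium, had 624, 549.6 and 550.4 CPM in citrine members and 96, 81.6 and 71.2 CPM in comparison cells. PDGFRa members had 497, 339, 332 and 438 CPM, and the comparison cells of those hearts 21.9, 27, 45.1 and 56.7 CPM, so members and comparison cells did not overlap. Its log2 fold change was 2.78 in citrine hearts (SE 0.06, adjusted p = 1.3e-13) and 3.43 in PDGFRa hearts (SE 0.22, adjusted p = 1.2e-06). Ly6c1, a lipid-anchored relative of Ly6a, had 459, 352 and 436 CPM in citrine members and 87.6, 58.2 and 77.8 CPM in comparison cells, with 609, 403, 436 and 356 CPM and 45.4, 46.4, 55.2 and 56.7 CPM in those of the PDGFRa hearts. Members exceeded comparison cells in each heart, by 2.48 and 3.04 on the log2 scale in citrine and PDGFRa hearts. Reads of Ly6c1 may be shared with its near-identical neighbour Ly6c2.

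Cd55, which protects cells from complement, was the most abundant of the named higher genes. It had 723, 726 and 817 CPM in citrine members and 178, 207 and 206 CPM in comparison cells. In PDGFRa hearts it had 1242, 1151, 1089 and 957 CPM in members and 141, 179, 233 and 203 CPM in comparison cells. Its log2 fold change was 1.91 in citrine hearts (SE 0.05, adjusted p = 1.0e-12) and 2.48 in PDGFRa hearts (SE 0.14, adjusted p = 7.7e-07). Thy1, the lipid-anchored surface protein CD90, rose by 2.28 and 2.19 in the same order, and Adgrd1, an adhesion receptor coupled to G proteins, by 2.06 and 2.12. The remaining named genes were the actin regulators Limch1 (2.62 and 3.45) and Nhsl1 (2.50 and 2.84), the nuclear protein gene Mustn1 (2.30 and 3.41), the matricellular gene Nov (2.30 and 2.10) and the elastic fibre gene Emilin2 (1.90 and 3.06).

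The 15 named higher genes were the largest changes, by the smaller of the 2 libraries' values, among genes called in both and at 50 CPM or more. Their levels in members and comparison cells did not overlap across hearts of a library, as they did not for 17.1% of all genes tested in citrine hearts (higher in members) and 8.62% in PDGFRa hearts. All 15 were higher in members of both tdTomato libraries.

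**Figure D3:**
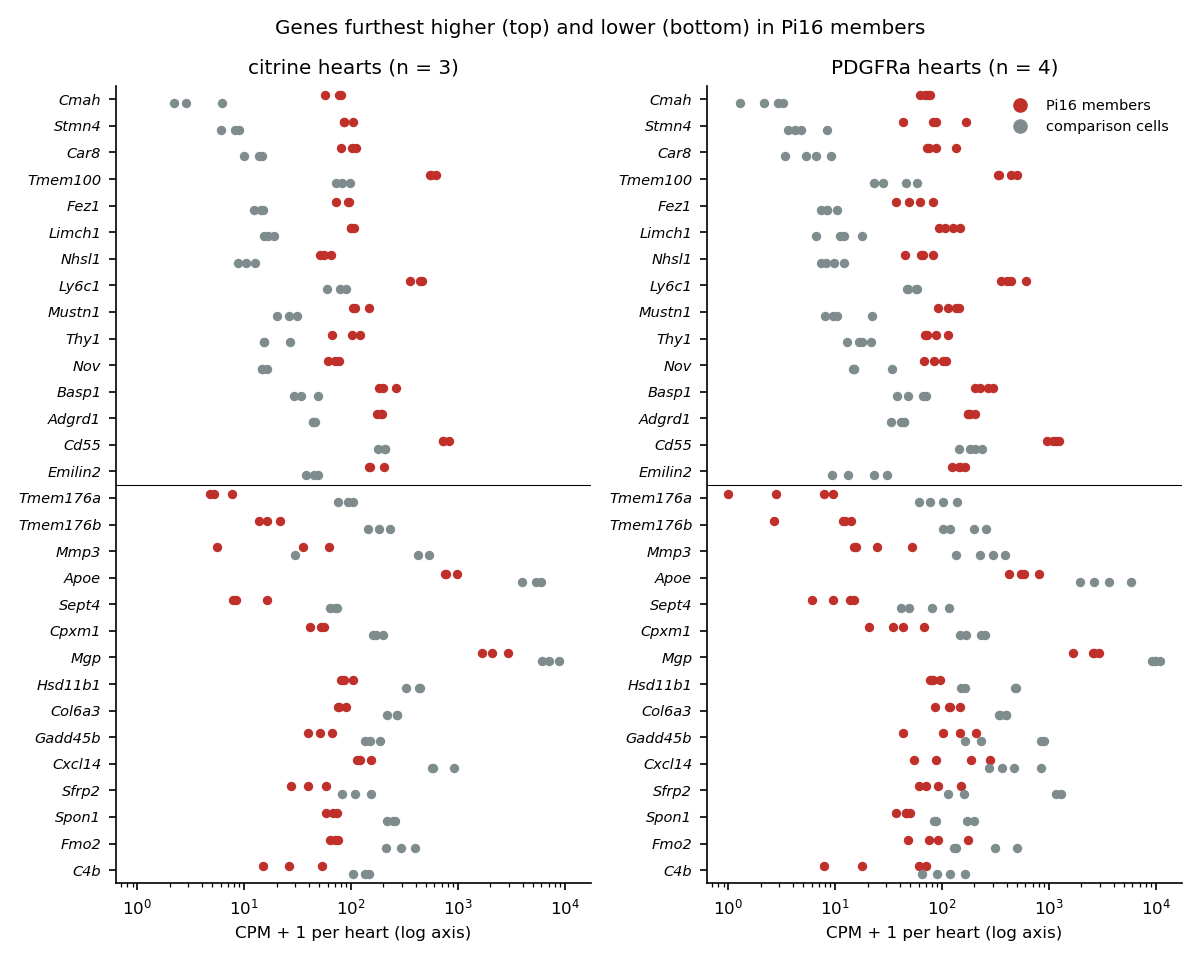
Levels of the 15 named higher (upper block) and 15 named lower genes (lower block) in each heart, as CPM plus 1 on a log axis. Red points are members and grey points comparison cells of citrine hearts (left, 3) and PDGFRa hearts (right, 4). Members of each higher gene lie to the right of all comparison cells, while Mmp3, Gadd45b, Cxcl14, Sfrp2, Fmo2 and C4b overlap in 1 of the libraries.

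Upstream sequences are shown for 3 of the higher genes, Cmah, Ly6c1 and Cd55, and for Mmp3, described below among the lower ones. They are the 250 bases before the gene's first base in RefSeq (GRCm38.p6), 5′ to 3′ on the gene's own strand, and none overlapped an annotated exon. Cmah's lies at chr13:24327154-24327403 (plus strand), Ly6c1's at chr15:75048838-75049087 (minus), Cd55's at chr1:130462745-130462994 (minus) and Mmp3's at chr9:7445572-7445821 (plus). Capitals mark matches, on either strand, to a TATA box (TATAAA), a GC box (GGGCGG), an AP-1 site (TGANTCA) or an EBF site (TCCC, any 2 bases, then GGGA).
Cmah: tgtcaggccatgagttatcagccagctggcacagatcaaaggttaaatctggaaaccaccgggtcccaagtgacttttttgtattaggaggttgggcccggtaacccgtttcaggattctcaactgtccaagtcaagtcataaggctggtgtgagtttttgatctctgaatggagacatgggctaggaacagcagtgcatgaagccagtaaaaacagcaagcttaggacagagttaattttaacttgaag
Ly6c1: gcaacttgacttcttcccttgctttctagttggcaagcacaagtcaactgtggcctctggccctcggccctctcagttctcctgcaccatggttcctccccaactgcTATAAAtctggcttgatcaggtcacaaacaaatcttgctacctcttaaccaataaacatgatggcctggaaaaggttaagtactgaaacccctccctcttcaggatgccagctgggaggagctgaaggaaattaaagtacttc
Cd55: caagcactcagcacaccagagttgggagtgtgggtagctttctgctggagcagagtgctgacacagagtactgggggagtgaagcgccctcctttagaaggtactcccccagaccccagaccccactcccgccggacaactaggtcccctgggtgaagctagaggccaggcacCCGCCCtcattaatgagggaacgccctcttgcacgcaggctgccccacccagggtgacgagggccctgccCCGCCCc
Mmp3: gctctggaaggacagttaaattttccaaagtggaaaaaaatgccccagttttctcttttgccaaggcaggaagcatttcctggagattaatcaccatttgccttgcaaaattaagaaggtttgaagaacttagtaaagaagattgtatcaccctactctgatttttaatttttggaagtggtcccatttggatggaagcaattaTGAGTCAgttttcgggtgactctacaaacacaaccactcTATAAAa
The Cmah window held none of these letters, Ly6c1's 1 TATA box and Cd55's 2 GC boxes, while Mmp3's held an AP-1 match and a TATA box that do not overlap. Of 27025 such windows, 1 per gene, 13% held the TATA letters, 32.9% the GC box, 6.87% the AP-1 letters and 0.788% the EBF letters. Of the 15 named higher genes 9 had a window, of which 1 held TATA, 4 a GC box and none the other motifs. Of the 15 lower genes 11 had one, of which 2 held TATA, 2 a GC box, 1 AP-1 and none EBF. A match describes letters and is not a measured binding site.

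The wider list of progenitor and adventitial genes, 32 genes outside the rule, had 29 of 32 higher and 1 lower in citrine hearts, with a median log2 fold change of 1.46. PDGFRa hearts had 27 of 31 higher and none lower, with a median of 1.79. Of all genes tested, 10.6% were higher and 11.4% lower in citrine hearts, and 5.7% and 7.59% in PDGFRa hearts, with medians of -0.01 and -0.02. The list was put together with results of these libraries known, so its direction is not independent evidence. Cd34, a sialomucin of stem and stromal cells, had 1487, 1598 and 1582 CPM in citrine members and 728, 869 and 771 CPM in comparison cells, and 1590.3, 1391, 1517 and 1355 CPM and 328, 381, 625 and 656 CPM in the PDGFRa hearts. Members were above comparison cells in each of the 7 hearts, by 0.96 and 1.53 on the log2 scale. Ackr3, a receptor that scavenges Cxcl12, rose by 1.70 and 2.66, Anxa3, an annexin, by 1.12 and 1.41, and Uchl1, a deubiquitinase best known from neurons, by 1.52 and 2.11.

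Not every gene of the list rose. The exception in citrine hearts was Bmp4, a ligand of the TGF-beta family, which fell by 1.17 on the log2 scale in citrine hearts (adjusted p = 1.3e-06) and had a value of -0.70 in PDGFRa hearts (adjusted p = 0.087). Dpt, which encodes the collagen-binding dermatopontin and is broadly expressed by fibroblasts, rose by 0.38 and 0.46. Wnt2, a Wnt ligand, was rare: citrine members had 2.29, 2.42 and 6.15 CPM against 0.336, 0.225 and 0.628 CPM in comparison cells, and PDGFRa members 34.5, 6.03, 8.44 and 6.78 CPM against 0.92, 2.11, 2.03 and 0.563 CPM. It was called higher in both, though 1 PDGFRa heart stood well above the other 3. Aldh1a3, a retinoic acid enzyme gene, rose by 1.40 in citrine hearts (adjusted p = 8.4e-05) and had a value of 0.96 in PDGFRa hearts that did not pass (adjusted p = 0.092). Il33, an alarmin cytokine, passed in neither, with 0.16 (adjusted p = 0.18) and 0.11 (adjusted p = 0.76).

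Genes of hyaluronan, the large sugar polymer of loose connective tissue, were mostly higher in citrine hearts. Of 12 genes tested 9 were higher and none lower there, and 5 of 13 were higher and 1 lower in PDGFRa hearts, against 10.6% and 5.7% of all genes higher. The list's medians were 0.99 and 0.07. Ugdh, which makes the glucuronic acid precursor, rose by 2.01 and 1.81 and Uap1, which makes the glucosamine precursor, by 1.84 and 2.08. The synthase gene Has2 rose by 2.04 and 1.53, with 113, 95.2 and 96.8 CPM in citrine members and 20.6, 24.8 and 24.5 CPM in comparison cells, and 139.6, 103, 113 and 103 CPM and 51.2, 55.4, 20.3 and 20.4 CPM in those of the PDGFRa hearts. Members stood above comparison cells in all 7 hearts. Has1, a second synthase gene, rose by 1.85 and 1.30. Gfpt2, the enzyme that starts the same precursor route, is a gene of the rule and is not in the list. With comparison cells held to the members' limits on Cthrc1 and Wif1, PDGFRa hearts had 6 of 11 higher and none lower. Over all genes 833 of 10340 were higher and 981 lower under those limits.

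Elastic fibre and microfibril genes were divided. In citrine hearts 6 of 17 were higher and 6 lower, and in PDGFRa hearts 6 and 7 of 17. Over all genes tested the shares were 10.6% higher and 11.4% lower in citrine, and 5.7% and 7.59% in PDGFRa hearts, and the counts of each list below are to be read against these. With comparison cells held to the members' limits on Cthrc1 and Wif1, 1221 of 11369 genes were higher and 1313 lower in citrine hearts. Under those limits PDGFRa hearts had 833 and 981 of 10340. DESeq2 called 662 and 623 of 11382 in citrine and 508 and 491 of 10475 in PDGFRa hearts. Among the elastic fibre and microfibril genes that rose were Mfap5, with 3469.5, 3155 and 3771 CPM in citrine members and 1153, 1041 and 1295 CPM in comparison cells, and Fbn1, which encodes fibrillin 1. Mfap5's log2 fold change was 1.55 in citrine hearts (SE 0.03, adjusted p = 1.3e-13) and 1.20 in PDGFRa hearts (SE 0.15, adjusted p = 1.7e-04), and Fbn1's was 1.45 and 1.38 in the 2 libraries. Fbn2, a second fibrillin gene, was rare in members, with 1.52, 0.907 and 0.28 CPM in citrine members and 2.18, 1.58 and 3.86 CPM in comparison cells, and 0, 3.45, 2.81 and 0 CPM and 65.7, 57.3, 8.72 and 10.8 CPM in those of the PDGFRa hearts. It fell, with log2 values of -1.80 (adjusted p = 0.047) and -4.61 (adjusted p = 2.1e-05), although the PDGFRa comparison cells of hearts 1 and 2 were far above those of hearts 3 and 4.

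Signalling genes changed in both directions. Of growth factors and their receptors 7 of 21 were higher in each library, with 8 lower in citrine and 9 lower in PDGFRa hearts. The fibroblast growth factors Fgf18 (1.86 and 1.54) and Fgf2 (1.32 and 1.47) and the IGF-binding protein gene Igfbp6 (1.28 and 1.79) rose, while Igfbp3 fell with log2 values of -3.15 and -5.11. Over all genes tested 10.6% were higher and 11.4% lower in citrine hearts, and 5.7% and 7.59% in PDGFRa hearts. Among Wnt pathway genes 6 of 17 and 5 of 16 were higher and 4 and 4 lower, with the ligand Wnt10b at 3.34 and 4.12 from levels of at most 10.9 CPM. Of TGF-beta and BMP genes 6 of 18 and 4 of 18 were higher and 8 and 6 lower. Among the lower ones were the BMP-responsive inhibitors of helix-loop-helix factors Id1 (-1.33 and -2.07), Id2 (-1.02 and -1.38) and Id3 (-1.02 and -1.46).

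Transcription factor genes were called in both directions. In citrine hearts 6 of 26 were higher and 10 lower (10.6% and 11.4% of all genes), and in PDGFRa hearts 4 and 7 (5.7% and 7.59% of all genes). DESeq2 called 3 of them higher in citrine hearts and 4 lower in PDGFRa hearts. Creb5 rose by 1.07 and 1.15, and Ebf1, a factor of early fat precursors, by 1.00 and 1.13. Zfp423, another regulator of fat precursors, rose by 1.09 and 1.10, while Lpl, the lipoprotein lipase gene of mature fat cells and resident fibroblasts, fell with log2 values of -1.11 and -0.93. The adipogenic list as a whole had 3 of 12 higher and 7 of 12 lower in each library. Hic1, the gene behind the reporters of 3 libraries, had log2 values of -0.15 (adjusted p = 0.056) and 0.18 (adjusted p = 0.64), and Pdgfra of -0.29 (adjusted p = 3.6e-04) and 0.05 (adjusted p = 0.89). Pdgfra's PDGFRa value was -0.32 when comparison cells were held to the members' limits on Cthrc1 and Wif1.

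The lower genes began with a neighbouring pair. Tmem176a, a membrane protein gene, had 3.81, 4.23 and 6.71 CPM in citrine members and 103, 74.2 and 92.4 CPM in comparison cells, and 1.81, 6.89, 8.44 and 0 CPM and 136, 99.7, 75.6 and 60.2 CPM in those of the PDGFRa hearts. Members held next to none in any heart, and the log2 fold change was -4.07 in citrine hearts (SE 0.14, adjusted p = 1.2e-11) and -4.52 in PDGFRa hearts (SE 0.32, adjusted p = 2.6e-06). Tmem176b, its neighbour on the chromosome, had log2 values of -3.55 and -4.30. Their genes lie at chr6:48840919-48847071, plus strand, and chr6:48833818-48841496, minus strand (GRCm38).

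Mmp3, the matrix protease stromelysin 1, varied widely between hearts. Citrine members had 4.57, 34.2 and 61 CPM and comparison cells 28.7, 417 and 532 CPM, so heart 1's comparison cells overlapped the members of the other hearts, while within each heart members were lower. PDGFRa members had 14.5, 50.8, 14.1 and 23.7 CPM and comparison cells 224, 134, 298 and 388 CPM. The log2 fold change was -3.34 in citrine hearts (SE 0.10, adjusted p = 2.2e-12) and -3.06 in PDGFRa hearts (SE 0.36, adjusted p = 9.8e-05).

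Resident fibroblast genes were mostly lower in citrine hearts. Of 20 genes in that list 17 were lower and 2 higher there, against 11.4% and 10.6% of all genes. In PDGFRa hearts 8 were lower, 3 higher and 9 not called, against 7.59% and 5.7% lower and higher over all genes. The medians were -0.69 and -0.24, and with comparison cells held to the limits on Cthrc1 and Wif1 PDGFRa hearts had 14 lower and 2 higher. Apoe, the lipid carrier apolipoprotein E, had 975, 768 and 757 CPM in citrine members and 5907, 5377 and 3937 CPM in comparison cells. In PDGFRa hearts it had 422, 540.4, 802 and 587 CPM in members and 2637, 1945, 5847 and 3651 CPM in comparison cells. No heart overlapped, and the log2 fold change was -2.62 in citrine hearts (SE 0.06, adjusted p = 2.6e-13) and -2.59 in PDGFRa hearts (SE 0.15, adjusted p = 7.7e-07).

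Mgp, an inhibitor of calcification that also binds BMPs, was among the most abundant transcripts and was lower in members. Citrine members had 2949, 2069 and 1680 CPM and comparison cells 8736, 7066 and 6104 CPM, and PDGFRa members 1656, 2555, 2620.3 and 2943 CPM and comparison cells 9256, 9747, 9823 and 10979 CPM. Its log2 fold change was -1.76 in citrine hearts (SE 0.04, adjusted p = 4.6e-13) and -2.15 in PDGFRa hearts (SE 0.12, adjusted p = 7.7e-07). Hsd11b1, which regenerates active glucocorticoid, had log2 values of -2.21 and -1.76. Cxcl14, a chemokine, had -2.43 and -1.66, but in PDGFRa heart 2 members had 278 CPM and comparison cells 271 CPM.

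The remaining named lower genes covered matrix, protease and metabolic functions. They were Col6a3, a collagen VI chain (-1.69 and -1.78), Cpxm1, a carboxypeptidase relative (-1.86 and -2.32), Spon1, a matrix protein (-1.88 and -1.55), Sfrp2, a secreted Wnt binder (-1.66 and -2.54), Fmo2, a flavin monooxygenase (-2.06 and -1.46), Sept4, a septin (-2.75 and -2.56), Gadd45b, a stress response gene (-1.67 and -2.11), and C4b, a complement component whose reads may be shared with its copy C4a (-2.30 and -1.43). All 15 were lower in members of both tdTomato libraries. Over all genes tested, 14.7% in citrine and 5.42% in PDGFRa hearts were lower in members with levels that did not overlap between hearts.

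Collagen genes were lower by smaller amounts. Of 12 fibrillar and associated collagens 7 were lower and 1 higher in citrine hearts (11.4% and 10.6% of all genes), and 9 lower and none higher in PDGFRa hearts (7.59% and 5.7% of all genes), of which DESeq2 called 5 lower. The medians were -0.17 and -0.86, and the PDGFRa median was -0.40, with 7 lower and 1 higher, under the same limits on Cthrc1 and Wif1. Col1a1, the main chain of collagen I, had log2 values of -0.35 and -1.54. Basement membrane genes had 7 of 12 lower and 3 higher in citrine and 4 lower and 3 higher in PDGFRa hearts (7 and 3 under those limits), with the collagen IV chains Col4a1 (-0.74 and -0.86) and Col4a2 (-0.96 and -1.01) lower in both.

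Genes of fibroblast activation depended on which cells stood opposite. In citrine hearts, all undamaged, 4 of 19 were higher and 7 lower in members (median -0.15). In PDGFRa hearts 11 of 20 were lower, or 7 by DESeq2, and none higher (median -1.52). Members are barred from Cthrc1-rich cells and comparison cells are not, and with both held to the same limits PDGFRa hearts had 9 lower and 2 higher (median -0.49). With those limits citrine hearts had 6 higher and 6 lower. Ptn, the growth factor pleiotrophin, had 4.57, 1.81 and 1.96 CPM in citrine members and 55.9, 26.2 and 53.2 CPM in comparison cells, and 76.2, 70.7, 59.1 and 27.1 CPM and 2456, 2274, 170.1 and 194 CPM in those of the PDGFRa hearts. Members were lower in each heart, and the comparison cells of PDGFRa hearts 1 and 2 stood above all others. Ptn's log2 values were -4.21 and -4.20, and those of Tnc, the injury matrix protein tenascin C, were -3.35 and -5.04. Lox, which cross-links collagen, had -1.77 and -2.63. C1qtnf3 and Kcnj15, called lower in PDGFRa and higher in citrine hearts, had PDGFRa values of -3.80 and -2.81, which became 0.90 and 0.81 under those limits.

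Chemokine and cytokine genes were called lower more often than higher. In citrine hearts 10 of 17 were lower and 2 higher (11.4% and 10.6% of all genes), and in PDGFRa hearts 11 of 19 were lower and 2 higher (7.59% and 5.7% of all genes), or 5 and 2 by DESeq2, with medians of -0.72 and -1.42. Cxcl12, the ligand that Ackr3 scavenges, had log2 values of -1.17 and -2.02, and the monocyte attractant Ccl2 of -1.71 and -1.42. Complement genes were mixed, with 3 of 11 higher and 4 lower in citrine and 2 and 2 of 11 in PDGFRa hearts, Cd55 and C7 being higher in both. Interferon response genes had 2 of 16 higher and 3 lower in citrine, and 1 higher and 9 lower in PDGFRa hearts. Proteases and their inhibitors had 6 of 23 higher and 7 lower in citrine, and 2 of 24 higher and 10 lower in PDGFRa hearts.

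Immediate early genes, which also respond to tissue dissociation, were lower in members. In citrine hearts 14 of 18 were lower and none higher (median -0.35), and in PDGFRa hearts 9 of 18 and none (median -0.44), or 15 and none with comparison cells held to the limits on Cthrc1 and Wif1. Over all genes 11.4% were lower in citrine and 7.59% in PDGFRa hearts, and 981 of 10340 in PDGFRa hearts under those limits. Jun, an AP-1 subunit gene, had log2 values of -0.66 and -0.59 and Ier3 of -0.55 and -1.33. The part of dissociation in the other differences was not tested.

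Cell cycle genes were scarce. In citrine hearts 2 of 19 were higher and 9 lower (10.6% and 11.4% of all genes), with a median of -0.39, and in PDGFRa hearts 1 of 10 and 2 (5.7% and 7.59%). Among cells of 4000 to 12000 UMIs the citrine hearts had 0 of 10 higher and 1 lower, with a median of 0.03. That range leaves out both shallower and deeper cells and fewer genes could be tested in it. The cause of the change in the citrine counts was not tested. Mki67, present in dividing cells, had a UMI in 1 of 161 ligated tdTomato members, in 0 of 246 undamaged ones (which allows a share of cells with a UMI of up to 1.22%), in 3 of 1894 citrine members and in 1 of 698 PDGFRa members. Comparison cells had one in 0.521%, 0.274%, 0.496% and 0.795%. Cdkn1a, an inhibitor of the cell cycle, was slightly higher in members, by 0.26 and 0.36 on the log2 scale.

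Levels of other genes changed stepwise with the Pi16 level of a cell, over all non-mural cells. Ly6a in the citrine library had 476, 787, 1149.5, 1614 and 2290.1 CPM in cells with no Pi16, under 10, 10 to under 20, 20 to under 40, and 40 or more Pi16 UMIs per 10000. In the PDGFRa library it had 190.5, 347, 833, 1334 and 2016 CPM over the same bands. Apoe ran the other way, with 9986, 4391, 1926, 1240.1 and 599.7 CPM in the citrine library and 4179, 2182, 1362, 799.9 and 388 CPM in the PDGFRa library. The steps had the same order for these genes in both tdTomato libraries. Cells without Pi16 had median depths of 3228 to 6770 UMIs and those at 40 or more 4269 to 9086, and the part of depth in the bands was not tested. Cd55 and Ackr3 climbed, and Hsd11b1 was lower in the highest band than in the lowest in each library. Mgp was highest in the band under 10 in the ligated tdTomato and PDGFRa libraries. These 6 genes were chosen after their values were seen, and the bands are a description with no test.

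**Figure D4:**
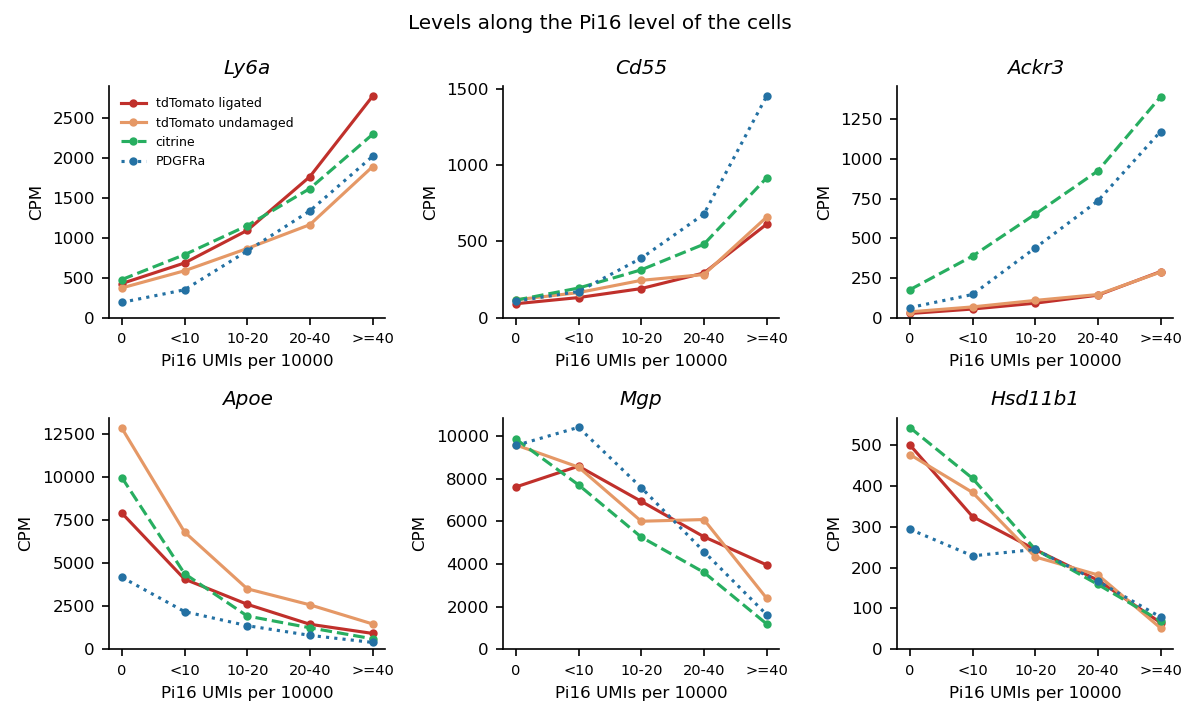
Mean level (CPM, vertical axes from 0) of 6 genes in all non-mural cells of each library, grouped by Pi16 UMIs per 10000 (horizontal axes). Ly6a, Cd55 and Ackr3 climb with Pi16 in all 4 libraries, Apoe falls in all 4, and Mgp and Hsd11b1 end lower than they begin.

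Markers of other cell types were measured in members and comparison cells. Pericyte markers, 9 genes, summed to 364 CPM in ligated and 145 CPM in undamaged tdTomato members, 185 CPM in citrine and 119 CPM in PDGFRa members. In the same order comparison cells had 575, 453, 322 and 247 CPM, and mural cells 20306, 23089, 10193.5 and 1069 CPM. The list holds Rgs5, Kcnj8 and Vtn, which set the mural and comparison cells apart by definition. Members with 2 or more mural genes numbered 4 in the ligated tdTomato, 0 in the undamaged tdTomato, 12 in the citrine and 1 in the PDGFRa library. Rgs5, a pericyte gene that limits comparison cells but not members, had 96.8 CPM in ligated members against 78.3 CPM in their comparison cells, 3.53 against 44.2 CPM in the undamaged tdTomato, 21.5 against 3.69 CPM in the citrine and 0.516 against 3.63 CPM in the PDGFRa library. The 6 valve markers summed to 392 CPM in PDGFRa members and 253 CPM in their comparison cells, and to 167 and 169.9 CPM in the citrine library. They include Wif1, which the rule bars from members and which had 2.54 CPM in PDGFRa and 4.82 CPM in citrine comparison cells. The 8 smooth muscle markers summed to 72.4 CPM in PDGFRa members and 491 CPM in their comparison cells, to 151 and 141 CPM in the citrine, to 128 and 319 CPM in the ligated and to 188 and 171 CPM in the undamaged tdTomato library. The part of such cells or RNA in the differences between members and comparison cells was not tested. Endothelial markers, 10 genes, summed to between 24.8 and 58.3 CPM over the members of the 4 libraries, macrophage and monocyte markers to between 7.57 and 11.9 CPM, and epicardial and mesothelial markers to at most 1.18 CPM. Ptprc, the pan-leukocyte gene, had a UMI in 2 of 1894 citrine members and in none of the other libraries' members. Adipoq, the fat cell gene, had none in members of any library. Fibroblast markers, 10 genes, summed to between 49752.5 and 75688 CPM in members, of which Gsn alone had 48105 CPM in undamaged tdTomato members. Mural cells had 12043 CPM in the ligated and 10125 CPM in the undamaged tdTomato library. In the citrine library they had 39295 CPM against 52271 CPM in members. In the PDGFRa library they had 53042 CPM against 50796 CPM in members, so the sum does not part mural cells from members there. Of the 10 genes 1 was higher and 8 lower in citrine, and 1 and 4 in PDGFRa hearts (10.6% and 11.4%, and 5.7% and 7.59%, of all genes). Cardiomyocyte markers, the usual free RNA of heart digests, summed to 7.06 to 53.4 CPM.

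The reporters and their genes were read once. tdTomato transcripts were found in 98.8% (95.6 to 99.8) of ligated members and 96.9% (96.2 to 97.5) of their comparison cells, and in 97.2% (94.2 to 98.8) of undamaged members and 92.7% (91.5 to 93.7) of theirs. The GFP sequence was found in 26.8% of PDGFRa members and 26.4% of PDGFRa comparison cells. Hic1 was detected in 86.1% (84.4 to 87.6) of citrine members and 81.6% (80.8 to 82.4) of citrine comparison cells, but in 6.5% and 7.21% of those of the undamaged tdTomato library. For tdTomato in the undamaged library and Hic1 in the citrine library the members' interval lay above that of the comparison cells. By median UMIs members were the deeper cells in each library, and the part of depth in these shares was not tested.

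The last comparison sets members of the ligated tdTomato library (161 cells, 847033 UMIs) against members of the undamaged one (246 cells, 1132708 UMIs), to ask what these cells looked like 7 days after infarction. With 1 library of 3 pooled hearts on each side no test is possible, and the intervals given are exact 95% intervals for counting error. Of 7651 genes that reached 20 UMIs over both sums together, 190 were over 2-fold higher (2.48%) and 248 over 2-fold lower (3.24%) in ligated members, with 1 UMI added to each sum. In the comparison cells of the same libraries, 354 of 12173 were higher (2.91%) and 521 lower (4.28%). The comparison-cell sums are deeper and hold more genes that reach 20 UMIs, so these counts stand side by side and the difference between them was not tested. The member counts were 1459 and 1058 without a minimum, and 22 and 39 at a minimum of 100 UMIs, so most genes past 2-fold had few UMIs.

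The 10 highest and 10 lowest ratios were named among genes at 50 CPM or more in either library whose interval leaves out 1. Cxcl2, a neutrophil attractant, had 56.7 CPM in ligated members, against 4.41 CPM in undamaged members (48 and 5 UMIs), a ratio of 10.9-fold (5.14 to 41.3). In comparison cells the ratio was 9.18-fold (7.57 to 11.4), so the increase was of similar size there. Hspb1, a small heat shock protein gene, had 319.9 CPM in ligated members, against 56.5 CPM in undamaged members, a ratio of 5.6-fold (4.3 to 7.56) against 4.78-fold (4.34 to 5.3) in comparison cells. Il6, an inflammatory cytokine, had 149.9 CPM in ligated members, against 45 CPM in undamaged members, 3.29-fold (2.39 to 4.7) higher, and Ccl7, a monocyte attractant, had 622 CPM in ligated members, against 214 CPM in undamaged members, 2.91-fold (2.5 to 3.41) higher. Their comparison-cell ratios were 2.35-fold (2.21 to 2.5) and 2.62-fold (2.49 to 2.77). Of the 14 chemokine and cytokine genes measured in both classes 5 were over 2-fold higher and none lower in members (median log2 0.74), and 5 higher and none lower in comparison cells (median 0.53). Over all genes measured in each class 2.48% were over 2-fold higher in members and 2.91% in comparison cells.

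The other 6 of the 10 highest ratios were over 2-fold in comparison cells too. The histone gene H2afj was higher 4.82-fold in members and 5.26-fold in comparison cells, the chemokine gene Cxcl14 3.96-fold in members and 3.26-fold in comparison cells, and the pentose phosphate enzyme gene Pgls 3.61-fold in members and 3.77-fold in comparison cells. The acute phase serpin gene Serpina3n was higher 3.42-fold in members and 3.1-fold in comparison cells, Ccdc85b 3.32-fold in members and 3.42-fold in comparison cells, and the p53 target Phlda3 3.15-fold in members and 2.79-fold in comparison cells. Below 50 CPM, the complement gene C4b had 42.5 CPM in ligated members, against 4.41 CPM in undamaged members (36 and 5 UMIs), a ratio of 8.25-fold (3.77 to 31.4) against 1.98-fold (1.75 to 2.26) in comparison cells, with reads that may be shared with C4a. The interferon-induced chemokine gene Cxcl10 had 23.6 CPM in ligated members, against 2.65 CPM in undamaged members (20 and 3 UMIs), a ratio of 7.02-fold (2.64 to 46.8) against 1.5-fold (1.31 to 1.74) in comparison cells. For both genes the members' interval lay above that of the comparison cells, and the intervals cover counting error only. Differences shared by both classes can belong to the libraries as much as to the ligation, and the 2 cannot be told apart.

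Among the decreases, Cytl1, a small secreted protein gene that also marks valve cells, had 3 UMIs in ligated and 163 in undamaged members, a ratio of 0.0326 (0.00502 to 0.0732). Comparison cells had a ratio of 0.0559. The 6 valve markers summed to 66.1 CPM in ligated and 254 CPM in undamaged members, and to 81.3 CPM and 490.5 CPM in comparison cells. Of these markers Wif1 is barred from members by the rule, and had 52.4 CPM in undamaged and 0 CPM in ligated comparison cells. The part of valve cells in the fall of Cytl1 was not tested. Id1, a BMP target, had 7.08 CPM in ligated members, against 84.8 CPM in undamaged members, a ratio of 0.0965 (0.0299 to 0.189), and 33.6 CPM in ligated comparison cells, against 144 CPM in undamaged ones. The ligand gene Bmp4 had 14.2 CPM in ligated members, against 51.2 CPM in undamaged members (12 and 58 UMIs), a ratio of 0.295 (0.135 to 0.521). In comparison cells its ratio was 0.373 (0.333 to 0.417), which lies inside the members' interval. Of 14 TGF-beta and BMP genes measured in both classes 4 were over 2-fold lower and none higher in members (median log2 -0.59), and 2 were lower and none higher in comparison cells (median -0.20). Over all genes measured in each class 3.24% were over 2-fold lower in members and 4.28% in comparison cells. Id1 rested on 6 ligated and 96 undamaged member UMIs, and Smad7 on 8 and 32.

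Cdkn1a had 190.1 CPM in ligated members, against 659 CPM in undamaged members, a ratio of 0.29 (0.242 to 0.342), and 219.6 CPM in ligated comparison cells, against 401 CPM in undamaged ones, a ratio of 0.548 (0.521 to 0.577). The 2 intervals do not overlap, though they cover counting error alone. The stress regulator Ddit4 had a ratio of 0.188 in members and 0.23 in comparison cells, the vasodilator peptide gene Adm 0.279 and 0.332, the angiopoietin-like Angptl7 0.232 and 0.186, and the chemerin receptor gene Cmklr1 0.303 and 0.43. Gm10709 (0.0738 and 0.0705) and Gm26802 (0.11 and 0.402) were also among the 10 lowest. Comp, a cartilage matrix gene at 46.8 CPM in undamaged members and so below the 50 CPM minimum, had a ratio of 0.198 (0.0677 to 0.39, 7 and 53 UMIs) in members and 0.454 in comparison cells.

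Activation genes had smaller ratios in members than in comparison cells for several of the genes measured. Postn, which encodes the scar matrix protein periostin, had 465 CPM in ligated members, against 319.6 CPM in undamaged members, a ratio of 1.46-fold (1.26 to 1.68). It had 1119 CPM in ligated comparison cells, against 178 CPM in undamaged ones, a ratio of 6.29-fold (5.96 to 6.66). Col1a1 had 778 CPM in ligated members, against 849 CPM in undamaged members, a ratio of 0.917-fold (0.828 to 1.01). It had 2052 CPM in ligated comparison cells, against 1005 CPM in undamaged ones, a ratio of 2.04-fold (1.99 to 2.09). Fn1, the fibronectin gene, had a ratio of 1.1-fold (0.886 to 1.36) in members and 8.07-fold in comparison cells. Acta2, the smooth muscle actin of myofibroblasts, had 0.547-fold (0.353 to 0.805) and 2.25-fold (2.02 to 2.52), and Tagln 0.439-fold and 2.63-fold. Lox was 3.82-fold (1.63 to 13.0) higher in members, on 19 ligated and 6 undamaged UMIs, and 5.24-fold in comparison cells. Thbs4 was 2.67-fold (1.16 to 7.61) higher in members, on 17 and 8 UMIs, and 4.47-fold in comparison cells. For Lox and Thbs4 the comparison-cell ratio lay inside the members' interval. Of the 16 activation genes measured in both classes 2 were over 2-fold higher and 2 lower in members (median log2 0.22), and 11 higher and 1 lower in comparison cells (median 1.49). Over all genes measured in each class the shares were 2.48% higher and 3.24% lower in members, and 2.91% and 4.28% in comparison cells. With 1 library per condition the gap between members and comparison cells at activation genes was not tested.

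Part of that gap is set by the rule, which bars Cthrc1-rich cells from members. With any Cthrc1 count allowed, which adds 8 ligated cells, 5 of 16 activation genes were over 2-fold higher and 1 lower (median 0.63). Of all 7779 genes measured under that setting 202 were over 2-fold higher and 250 lower. The log2 ratio of Postn in members was then 1.34 instead of 0.54, and that of Col1a1 0.28 instead of -0.13. At 3 or more further markers Postn's was 0.01, and at 40 or more Pi16 UMIs per 10000 it was 1.57, where Acta2's was 0.31, so both values depend on where the rule is set. In comparison cells Postn's log2 ratio was 2.65. A Postn UMI was found in 32.9% (25.7 to 40.8) of ligated and 21.5% (16.6 to 27.2) of undamaged members, and in 24% and 12.1% of comparison cells.

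**Figure D5:**
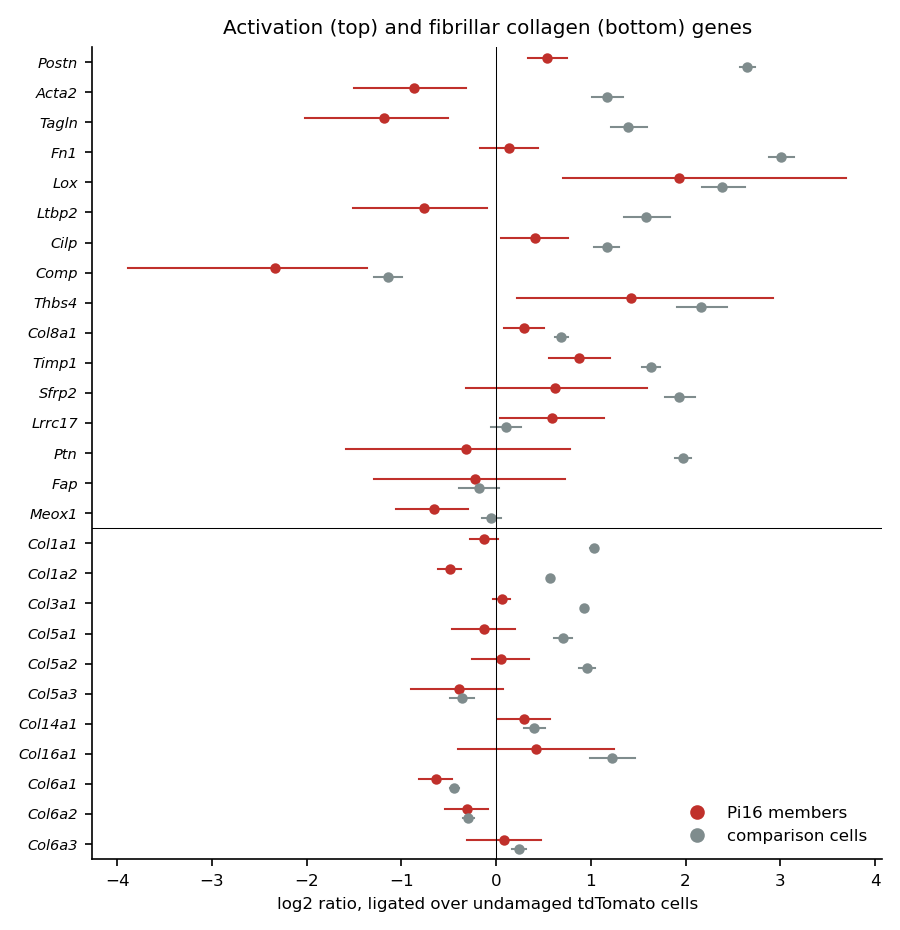
Log2 ratio of ligated over undamaged tdTomato cells (horizontal axis) for 16 activation genes (upper block) and 11 collagen genes (lower block), in members (red) and comparison cells (grey), with exact 95% counting intervals. Postn lies at 0.54 in members and 2.65 in comparison cells.

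Genes that were higher in members than in comparison cells were read in the same way after ligation. Ly6a had 2623 CPM in ligated members, against 1782 CPM in undamaged members, a ratio of 1.47-fold (1.39 to 1.56), and 1.18-fold (1.14 to 1.23) in comparison cells. Cd34 had a ratio of 1.08-fold (1.01 to 1.15) and Cd55 of 0.949-fold (0.837 to 1.07). Of 28 genes measured in the progenitor and adventitial list none was over 2-fold higher and 2 were lower, against 2.48% and 3.24% of all genes measured (median log2 -0.10), namely Bmp4 and the hyaluronan synthase gene Has1, which had a ratio of 0.366 (0.247 to 0.512). The median over all genes measured was -0.00317 in members and -0.06 in comparison cells. Tcf21, a transcription factor gene of resident fibroblasts, had 208 CPM in ligated members, against 231 CPM in undamaged members, a ratio of 0.9-fold (0.738 to 1.09). Pdgfra had 0.742-fold (0.604 to 0.903) in members and 0.725-fold (0.685 to 0.768) in comparison cells, and Hic1 2.11-fold (1.16 to 4.12) and 1.52-fold (1.27 to 1.84) from 29 and 18 UMIs in members.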

How the data were processed

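The 4 libraries were deposited as gene by barcode matrices of UMI counts, which the authors made with Cell Ranger count on a modified mm10 genome, per the labels' protocols and the submitters' processing notes. The file headers of the citrine and PDGFRa matrices name Cell Ranger 3.0.2, and the submitters' notes also list Seurat 2.1. The deposited counts are raw, and doublets were not removed here beyond leaving cells without a single hashtag out of the sums per heart.

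Counts were summed per hashtag heart over members and over comparison cells, so hearts and not cells were the replicates. Genes were tested with edgeR 4.0.16 (R 4.3.3, limma 3.58.1) by its quasi-likelihood test, with TMM factors, its filterByExpr filter and the heart as a block, since both sums come from the same heart. P-values were adjusted by Benjamini-Hochberg over all genes tested, at 0.05. The 12 genes of the rule and the reporters were left out of the test and of library sizes. The same procedure was tested on simulated data. Genes outside the rule were measured in the very cells that the rule chose, so the tests describe those cells and do not show that they form a separate class. Sums per heart held 355306 to 3575601 UMIs in members.

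The tdTomato libraries are 1 library per condition and were not tested. Their ratios of CPM have 1 UMI added to each sum and exact 95% intervals, which cover counting error only. Shares have exact Clopper-Pearson intervals, and a count of 0 is given the limit that 3 cells allow. Sums and intervals were computed in Python 3.11.15 with scipy 1.17.1, pandas 2.3.3 and numpy 2.4.6, and drawn with matplotlib 3.10.9. Named genes were the 15 largest changes in each direction, by the smaller of both libraries' values, among those called alike in both libraries and at 50 CPM or more, the 10 highest and 10 lowest ratios after ligation among genes at 50 CPM or more in either library with an interval that leaves out 1, and 2 to 4 genes per list. The genes of the Pi16 level bands were chosen after their values were seen.

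Alternatives were DESeq2 1.42.0, relative log expression factors, no filter, no block, other thresholds of the rule, other hashtag shares, a fixed depth range and each heart left out. Chosen after seeing the data were a hashtag share of 60%, leaving out members with 2 or more mural genes, member shares within a fixed depth range, and holding comparison cells to the members' limits on Cthrc1 and Wif1. The members and the gene lists were chosen with earlier results of these data known.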

Additional observations from a re-analysis of the deposited data

Results flagged for a closer look

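Wnt2, the Wnt ligand gene of the progenitor and adventitial list, had 34.5, 6.03, 8.44 and 6.78 CPM in members of PDGFRa hearts 1 to 4. Heart 1 stands apart from the other 3 by more of the group's range than Dixon's 95% critical value for 4 samples allows. It was the 1 value so singled out among 55 checked, where chance alone gives about 1 in 20. Heart 1 had 53 members with 551481 UMIs of all genes together, so its Wnt2 value rests on few UMIs. The check takes no account of counting error. Comparison cells of the same hearts had 0.92, 2.11, 2.03 and 0.563 CPM.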

How the results depend on the processing

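The member shares moved with the rule. At 10 Pi16 UMIs per 10000 they were 6.24% in the ligated tdTomato, 12% in the undamaged tdTomato, 28.3% in the citrine and 11.6% in the PDGFRa library. At 40 they were 1.67%, 4.38%, 7.87% and 2.00%, with 3 or more further markers 2.7%, 5.99%, 14.1% and 4.61%, thinned to 2000 UMIs with shallower cells left out 2.92%, 6.89%, 12.4% and 4.55%, and in cells of 4000 to 12000 UMIs, chosen after seeing the data, 6.94%, 17.9%, 16.7% and 7.14%. The ligated tdTomato share was below the undamaged one under each of these 5 alternatives, while the undamaged tdTomato share was below the citrine one under 4 of them.

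Counts of called genes depended on the fit. DESeq2 called 662 higher and 623 lower in citrine hearts, 491 lower in PDGFRa hearts and 314 lower in both. Without the replicate block citrine hearts had 829 lower, PDGFRa hearts 353 higher and 241 lower, and both 316 and 197. At a hashtag share of 95% the counts were 486 and 525 in citrine hearts, 189 and 298 in PDGFRa hearts, and 147 and 133 in both. Leaving out each heart gave 934 to 1310 higher and 953 to 1326 lower genes in citrine hearts, 332 to 569 and 325 to 768 in PDGFRa hearts, and 318 to 510 and 272 to 504 in both. After ligation, members had 22 higher and 39 lower genes at 100 UMIs or more, and 1459 and 1058 with no filter. The causes were not tested. All 30 named genes kept their calls in citrine hearts under each alternative run. In PDGFRa hearts 5 lost them without the block, 3 at a hashtag share of 95%, 2 with DESeq2, 1 at 10 Pi16 UMIs per 10000, and 2, 1 and 1 without hearts 1, 2 and 4.

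Several values changed sign. Acta2 after ligation was 0.31 (log2) at 40 Pi16 UMIs per 10000. In citrine hearts Acta2 ranged from -0.30 to 0.51 as each heart was left out, the highest without heart 3, and was 0.46 at 10 Pi16 UMIs, 0.60 at a hashtag share of 95% and 0.51 in cells of 4000 to 12000 UMIs. Comp was -1.45 at 40 Pi16 UMIs and -0.51 with 3 markers, Postn -0.56 at 40, and Cspg4 -0.14 and Cytl1 0.40 at a hashtag share of 95%. In PDGFRa hearts Pdgfra was -0.33 in cells of 4000 to 12000 UMIs. With comparison cells held to the limits on Cthrc1 and Wif1 it was -0.32, C1qtnf3 0.90 and Kcnj15 0.81. Genes at a few CPM, members of 43 to 125 cells per PDGFRa heart and 1 library per tdTomato condition limit what the depth can show.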

Other observations

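The 4 PDGFRa hearts, whose condition the labels used here do not assign, differed more in comparison cells than in members for several genes. Postn had 1144, 713, 352 and 390.1 CPM in members of hearts 1 to 4 and 3680.1, 3955, 186 and 276 CPM in comparison cells. Sfrp2 had 68.9, 89.6, 149 and 59.4 CPM in members and 1156, 1283, 160.5 and 113 CPM in comparison cells, and Gadd45b 147, 208, 101 and 42.4 CPM and 894, 837, 231 and 164 CPM. Comparison cells of hearts 1 and 2 were above those of hearts 3 and 4 for all 3 genes, and no group of hearts was formed from these values. Has1 had 194, 186, 64.7 and 37.3 CPM in members and 90.6, 77.3, 11.9 and 11.1 CPM in comparison cells, so here the members of hearts 1 and 2 were above those of hearts 3 and 4 as well.

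Hic1 transcripts were detected in 86.1% of members of the citrine library, against 16.8% in the ligated tdTomato, 6.5% in the undamaged tdTomato and 25.6% in the PDGFRa library, whose median depths were 5146, 4520.5 and 7966 UMIs per member against 9601.5 in the citrine library. The libraries were also sorted by different reporters, and the parts of sort and depth in these shares were not tested.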
